A study of Homo sapiens with 2 samples.

Results

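The CEP genes encode centrosomal proteins, and 35 of them, out of 11916 protein-coding genes with a named transcript cluster, were read in RNA of MDA-MB-231, a human breast cancer cell line in long use, of basal and mesenchymal character. Members were all protein-coding genes of the probe table whose symbol is CEP followed by a digit, with no filter on level, and each was read by 1 cluster. The family was picked because its genes were mostly lower on one array in an earlier look at the same values, so its direction is a description here and no test is given.

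RNA came from 2 treatments, each represented by 1 array. Cells received either compound 1, a small molecule that the study directs at the microRNA miR-544, or an antagomir against it, which is a synthetic RNA complementary to the microRNA, 24 hours before 5 days in hypoxia at under 1% oxygen. The series design speaks of 3 samples pooled before hybridisation, so a value is that of a pool, and differences between the arrays have no replicate error and no p-value. Untreated cells and cells in normal oxygen are not analysed here, so each statement below sets one treatment against the other. Fewer cells in a given phase of the cycle and less RNA per cell cannot be told apart in such bulk samples.

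The centrosome is built around a pair of centrioles, which duplicate in S phase and gather a pericentriolar material that nucleates microtubules. In mitosis the duplicated centrosomes form the spindle poles, and in resting cells the older centriole, through its appendages, becomes the basal body of the primary cilium. CEP proteins serve at every one of these steps, from centriole assembly to the ciliary transition zone and the final cut of cytokinesis.

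The microRNA that the study addresses is shown first, because its seed, in capitals, is what an antagomir covers and what pairs with targets. The labels say miR-544 without a letter, and RefSeq (GRCh38.p14) has these mature forms, whose seeds, bases 2 to 8, differ.
hsa-miR-544a, chr14:101048712-101048733, plus strand: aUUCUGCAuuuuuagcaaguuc
hsa-miR-544b, chr3:124732486-124732507, plus strand: aCCUGAGGuugugcauuucuaa

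Promoters of 31 of the 35 CEP genes were matched in RefSeq. The next sequences are the 250 bases before the RNA start of 4 of the 6 members that hold both of 2 cell cycle promoter elements, followed by CEP131, a member with a higher value under compound 1 and with the first element only. Capitals mark the CCAAT box, bound by NF-Y, and the CHR element TTTGAA, known from genes expressed in G2 and mitosis, each on either strand.
CEP295, chr11:93661432-93661681, plus strand: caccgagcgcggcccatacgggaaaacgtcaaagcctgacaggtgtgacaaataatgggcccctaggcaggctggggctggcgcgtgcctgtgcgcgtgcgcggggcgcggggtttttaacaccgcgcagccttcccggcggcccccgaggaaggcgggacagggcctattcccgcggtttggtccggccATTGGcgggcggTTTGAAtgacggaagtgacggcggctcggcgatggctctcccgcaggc
CEP152, chr15:48811070-48811319, minus strand: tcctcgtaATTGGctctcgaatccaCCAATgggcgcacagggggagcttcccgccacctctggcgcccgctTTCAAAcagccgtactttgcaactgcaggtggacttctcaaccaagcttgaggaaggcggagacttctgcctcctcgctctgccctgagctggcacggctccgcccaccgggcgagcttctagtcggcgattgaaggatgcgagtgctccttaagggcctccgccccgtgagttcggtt
CEP192, chr18:12991112-12991361, plus strand: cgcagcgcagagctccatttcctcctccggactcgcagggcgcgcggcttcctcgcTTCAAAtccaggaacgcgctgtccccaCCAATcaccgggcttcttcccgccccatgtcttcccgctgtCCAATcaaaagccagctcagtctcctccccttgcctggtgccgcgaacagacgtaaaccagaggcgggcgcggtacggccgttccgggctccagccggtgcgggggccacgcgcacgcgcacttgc
CEP55, chr10:93496362-93496611, plus strand: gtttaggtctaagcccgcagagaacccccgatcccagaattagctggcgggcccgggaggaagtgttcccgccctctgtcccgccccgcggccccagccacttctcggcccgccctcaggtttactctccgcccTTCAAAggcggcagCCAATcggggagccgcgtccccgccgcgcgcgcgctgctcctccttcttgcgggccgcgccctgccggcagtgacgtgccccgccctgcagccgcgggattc
CEP131, chr17:81222966-81223215, minus strand: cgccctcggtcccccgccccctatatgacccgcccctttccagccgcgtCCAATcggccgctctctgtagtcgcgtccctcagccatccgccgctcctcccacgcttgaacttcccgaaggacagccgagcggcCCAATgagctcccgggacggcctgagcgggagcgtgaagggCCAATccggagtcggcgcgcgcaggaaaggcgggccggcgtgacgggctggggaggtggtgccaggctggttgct

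As a family, CEP transcripts were slightly lower in cells given compound 1. Of the 35 genes, 30 were lower with compound 1 than with the antagomir, 4 were higher and 1 was identical. Of all protein-coding genes 54.3% were lower, 44.1% higher and 1.69% identical. The number lower was 32 after each array was centred on its median, 29 after quantile normalization and 31 after cyclic loess, where 61.7%, 48.8% and 51.1% of all protein-coding genes were lower. The median log2 difference, compound 1 minus antagomir, was -0.13 for the CEP genes and -0.023 for all protein-coding genes. The ranges overlapped, since the middle 50% of CEP genes ran from -0.20 to -0.070 and that of all protein-coding genes from -0.14 to 0.10. The differences were small in size, and 30 of the 35 genes lay within 1.2-fold and 35 within 1.5-fold. Past 1.2-fold, 4 CEP genes were lower and 1 was higher, against 9.05% lower and 8.04% higher of all protein-coding genes. After centring, which lowered every difference by the same amount, 7 CEP genes were lower and 0 higher past 1.2-fold. The share of all protein-coding genes past 1.2-fold after centring was not counted. At 1.1-fold 15 CEP genes were lower and 1 higher, against 25.8% and 20.3% of all protein-coding genes, and at 1.5-fold there were 0 either way, against 0.478% lower and 0.655% higher.

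**Figure D1:**
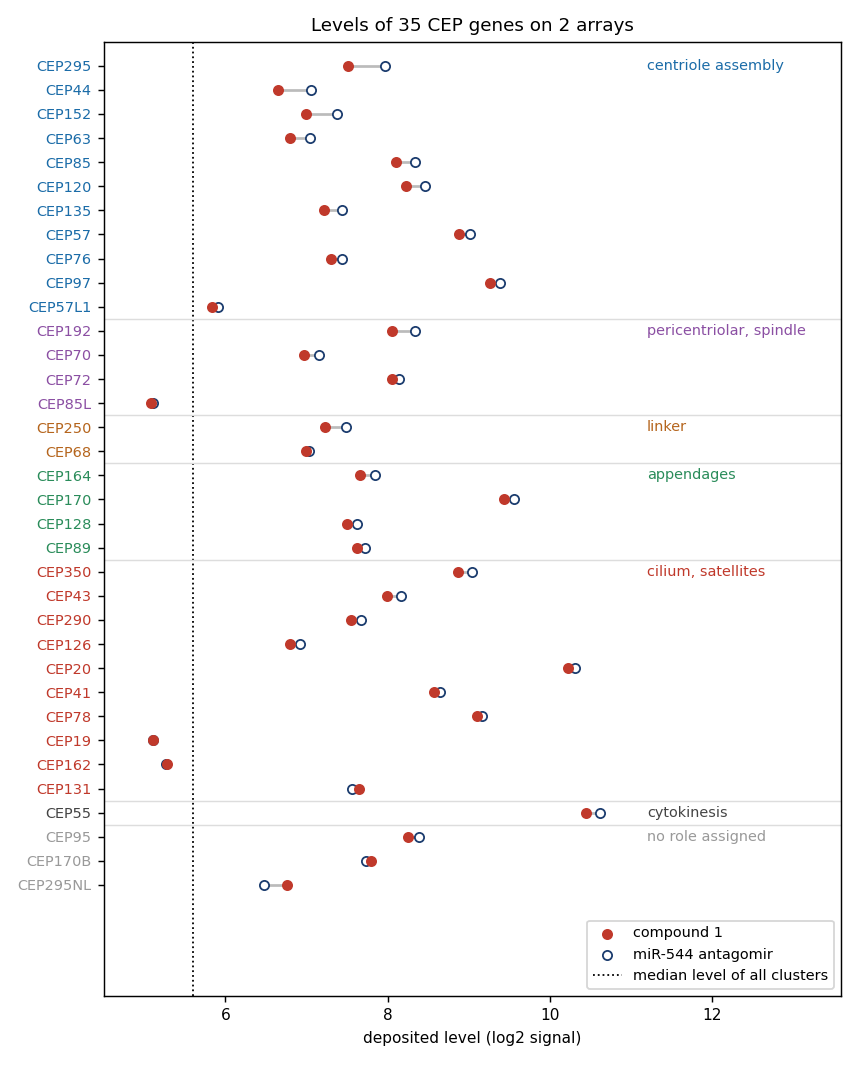
Deposited log2 level of each CEP gene with compound 1 (filled) and with the antagomir (open), 1 array per treatment, with genes grouped by role. The filled point lies to the left in 30 of the 35 genes, and the gaps are small beside the range of levels.

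Genes of centriole assembly held the lowest differences, and gaps between role groups were not tested. All 11 were lower on the compound 1 array, with a median of -0.23, and 3 of them passed 1.2-fold, against 54.3% lower and 9.05% lower past 1.2-fold of all protein-coding genes. CEP295, needed for a new centriole to become a centrosome, had a log2 level of 7.52 with compound 1 and 7.97 with the antagomir, a difference of -0.46 or 1.37-fold. CEP44, which acts in the same conversion, was at 6.65 with compound 1 and 7.06 with the antagomir (-0.40). CEP152, the scaffold that brings the duplication kinase PLK4 to the mother centriole, was at 6.99 with compound 1 and 7.38 with the antagomir (-0.39). These were the 3 lowest differences of the family, and 1.49%, 2.52% and 2.96% of protein-coding genes lay lower than CEP295, CEP44 and CEP152.

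CEP63, the partner of CEP152 in a ring around the mother centriole, had a level of 6.79 with compound 1 and 7.05 with the antagomir (-0.26). CEP57, which joins the same ring, had 8.88 with compound 1 and 9.01 with the antagomir (-0.14). All 3 ring genes were thus lower with compound 1. CEP85, which binds the duplication factor STIL, read 8.10 with compound 1 and 8.34 with the antagomir. CEP120, needed for centriole elongation, read 8.23 with compound 1 and 8.46 with the antagomir. CEP135, a protein of the cartwheel from which a centriole grows, read 7.22 with compound 1 and 7.44 with the antagomir. The last 3 lay together at -0.24, -0.23 and -0.22. CEP76, which restrains reduplication, read 7.30 with compound 1 and 7.44 with the antagomir (-0.14), and CEP97, which caps centrioles with CCP110, read 9.26 with compound 1 and 9.39 with the antagomir (-0.12). CEP57L1, a relative of CEP57 that helps to hold centrioles together, was at 5.83 with compound 1 and 5.90 with the antagomir (-0.071).

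The pericentriolar and spindle members were also lower, in 4 of 4 genes, by unequal amounts, where 54.3% of all protein-coding genes were lower. CEP192, the scaffold that recruits AURKA, PLK1 and gamma-tubulin to the spindle poles, had 8.05 with compound 1 and 8.33 with the antagomir, a difference of -0.28 that was just past 1.2-fold. CEP70, which binds gamma-tubulin, had 6.97 with compound 1 and 7.15 with the antagomir (-0.19). CEP72, a pericentriolar protein, had 8.05 with compound 1 and 8.15 with the antagomir (-0.095, and -0.0275 after quantile normalization). Of these 3 genes, CEP192 alone passed 1.2-fold as deposited, and it lay inside 1.2-fold after quantile normalization (-0.21) and after cyclic loess (-0.22). CEP85L was under the median level of all clusters, 5.60, on both arrays and read 5.09 with compound 1 and 5.11 with the antagomir. Its difference of -0.024 was close to the array's middle, with 49.7% of protein-coding genes lower than it. The linker genes, which tie the centrosomes together in interphase, were lower by unequal amounts. CEP250, the main protein of the linker, lay just inside 1.2-fold at -0.26, at 7.23 with compound 1 and 7.49 with the antagomir. The other linker gene, CEP68, was close to equal, at 7.00 with compound 1 and 7.03 with the antagomir, and its difference of -0.032 was 0.0008 after quantile normalization.

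All 4 appendage genes were lower (54.3% of all protein-coding genes were) by a like amount, from -0.18 to -0.11, and none passed 1.2-fold. CEP164, the distal appendage protein that docks the kinase TTBK2 to start a cilium, read 7.66 with compound 1 and 7.84 with the antagomir. CEP89, of the same appendage, read 7.62 with compound 1 and 7.73 with the antagomir. The subdistal appendage genes were CEP170, at 9.43 with compound 1 and 9.56 with the antagomir, and CEP128, at 7.49 with compound 1 and 7.62 with the antagomir. The pseudogene CEP170P1 read 9.42 with compound 1 and 9.58 with the antagomir (-0.17), and since it resembles CEP170 in sequence, its cluster and that of CEP170 may share signal. CEP192 also has a pseudogene with clusters, CEP192P1, but these read far lower, from 3.40 to 5.06, against 8.05 and 8.33 for CEP192. Sharing of signal was not tested for either gene.

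Cilium and satellite genes were more mixed, with 7 lower, 2 higher and 1 identical among 10, a median of -0.079 and none past 1.2-fold. Among all protein-coding genes 54.3% were lower. CEP350 and CEP43, which act together at the centriole and recruit CEP19, differed by -0.18 and -0.17, where CEP350 was at 8.87 with compound 1 and 9.05 with the antagomir and CEP43 at 7.99 with compound 1 and 8.16 with the antagomir. CEP19 itself was 5.11 on both arrays, under the median level of all clusters. CEP290, the transition zone protein whose loss causes several ciliopathies, read 7.55 with compound 1 and 7.68 with the antagomir (-0.13). The next pair of satellite genes differed by less than CEP350 and CEP43. CEP126, a satellite protein, read 6.80 with compound 1 and 6.92 with the antagomir (-0.12). CEP20, a satellite protein related to CEP43, read 10.22 with compound 1 and 10.31 with the antagomir (-0.088).

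The rest of the cilium genes sat near zero or above it, and some had no settled sign. CEP41, which supports glutamylation of ciliary tubulin, was at 8.58 with compound 1 and 8.65 with the antagomir, and its difference of -0.070 was 0.010 after quantile normalization. CEP78, a centriole wall protein whose loss causes a disease of retina and hearing, was at 9.10 with compound 1 and 9.16 with the antagomir, and its -0.059 was 0.015 after quantile normalization and 0.012 after cyclic loess. CEP162, which promotes transition zone assembly, was at 5.28 with compound 1 and 5.27 with the antagomir, under the median level of all clusters, and its 0.0098 was below zero after each of the 3 scalings. CEP131, a satellite protein, was higher with compound 1, at 7.64 against 7.56 with the antagomir (0.088), and remained higher under the 3 scalings.

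CEP55, which starts the last cut of cytokinesis by bringing abscission factors to the midbody, read 10.45 with compound 1 and 10.63 with the antagomir (-0.17). For 3 members no role was assigned. CEP95 was lower, at 8.25 with compound 1 and 8.39 with the antagomir, and CEP170B was higher, at 7.80 with compound 1 and 7.74 with the antagomir. CEP295NL had the highest difference of the family, 0.28 or 1.21-fold, at 6.76 with compound 1 and 6.48 with the antagomir.

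**Figure D2:**
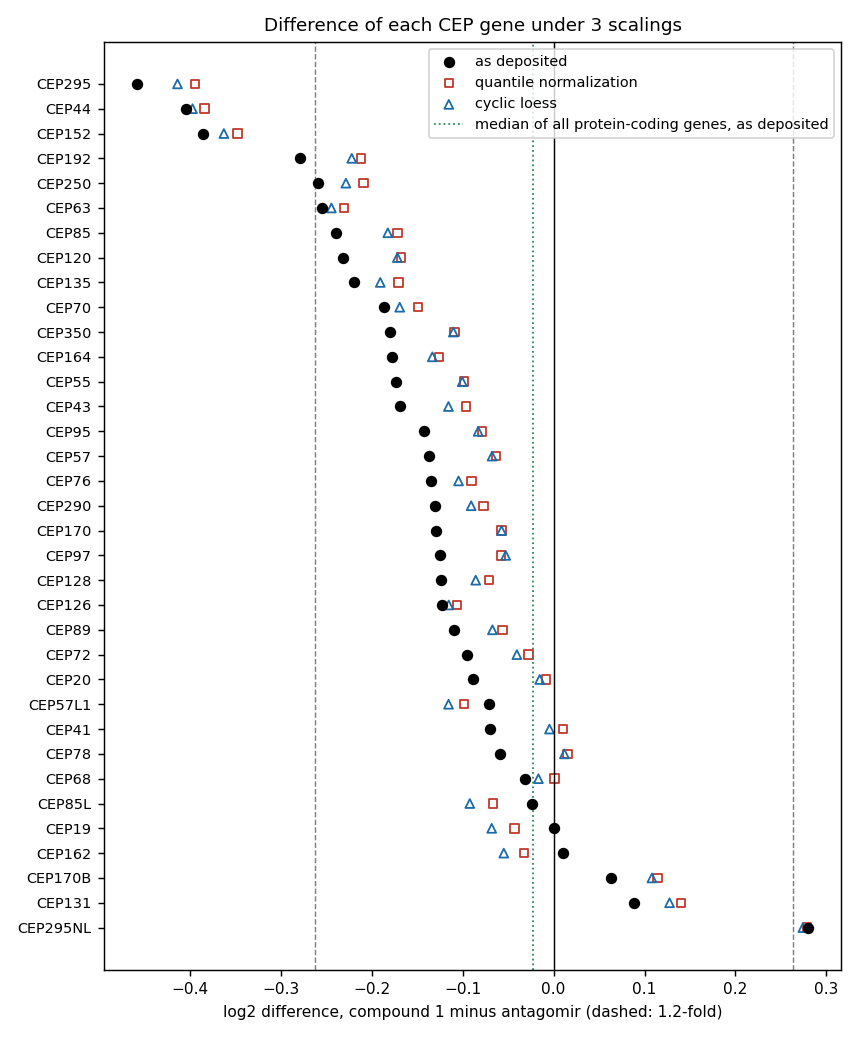
Log2 difference, compound 1 minus antagomir, of each CEP gene with values as deposited, after quantile normalization and after cyclic loess, where dashed lines mark 1.2-fold. Most genes move toward zero under both scalings, and CEP295, CEP44 and CEP152 remain past 1.2-fold at -0.348 or below.

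Genes that share a base symbol had unequal differences. CEP295 and CEP295NL lay at the opposite ends of the family, with -0.46 and 0.28. CEP170 was at -0.13 and CEP170B at 0.063, CEP85 at -0.24 and CEP85L at -0.024, and CEP57 at -0.14 and CEP57L1 at -0.071. In each of the 4 pairs the first gene was the lower one as deposited, but CEP57 and CEP57L1 changed order after quantile normalization (-0.063 and -0.098) and after cyclic loess (-0.068 and -0.12). The first gene also had the higher mean log2 level in each pair. In the order above, the levels were 7.75 and 6.62, 9.50 and 7.77, 8.22 and 5.10, and 8.95 and 5.87. Differences ran lower at higher levels across the array, as described below, and the part of level in these gaps was not tested. The precision of such gaps can be read only from genes with several clusters. Among 399 protein-coding genes with 2 clusters, the clusters' differences had the same sign in 52.1% and correlated with r = 0.122 across genes, and the spread of a single cluster's difference was 0.17 (robust SD). With both clusters at or above the median level of all clusters, 231 genes gave 55.0%, r = 0.172 and a spread of 0.14. The 1.2-fold threshold, 0.26 on the log2 scale, is less than 2 such spreads, so the values of single CEP genes are descriptions. At low levels the 3 clusters of the pseudogene CEP192P1 had differences of 0.00, -0.30 and 0.54.

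Level moved with the difference across the arrays. Of protein-coding genes with a mean log2 level under 6, 35.4% were lower on the compound 1 array, and of those at 9 or more 74.6% were. CEP genes lay mostly at middle to high levels, with a median of 7.67 against 7.06 for all protein-coding genes. Under 6, 2 of 4 CEP genes were lower, and the medians of CEP and of all protein-coding genes were -0.012 and 0.070. Between 6 and 7, 3 of 4 were lower, where 45.9% of 2428 protein-coding genes were, with medians of -0.19 and 0.016. Between 7 and 8, 11 of 13 CEP genes were lower, where 62.2% of 2282 protein-coding genes were, and the medians were -0.14 and -0.059. Between 8 and 9, 9 of 9 CEP genes were lower, where 68.1% of 1848 were, with medians of -0.17 and -0.072. At 9 and above, 5 of 5 were lower, with medians of -0.12 and -0.079. From the lowest band to the highest, the CEP median minus that of all protein-coding genes was -0.082, -0.21, -0.076, -0.098 and -0.046. Among the 35 CEP genes themselves the difference and the level had r = -0.19 (rho = -0.17), a description over genes that share 2 arrays. The part of the level trend in the CEP result was not tested beyond these bands and cyclic loess, after which the CEP median was -0.092 and that of all protein-coding genes -0.0054.

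**Figure D3:**
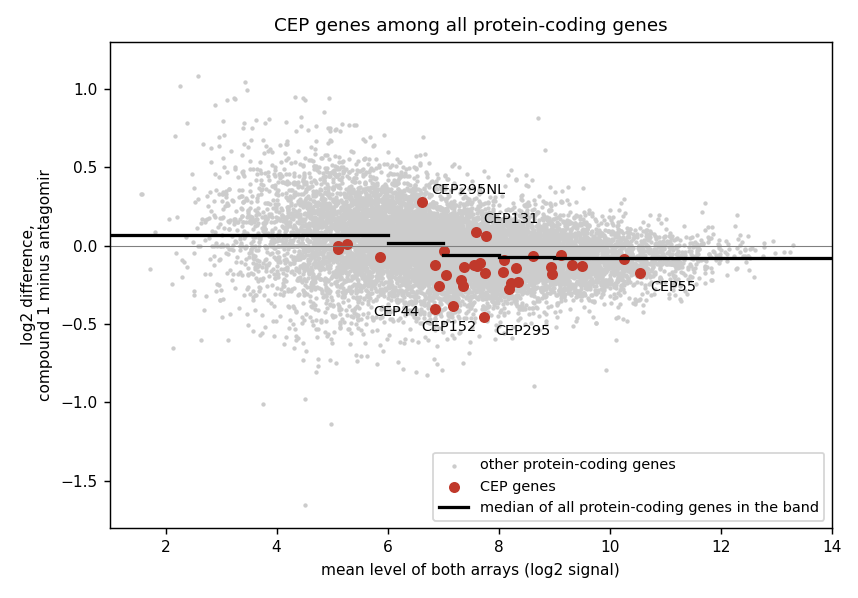
Log2 difference, compound 1 minus antagomir, against mean log2 level for the CEP genes and the other protein-coding genes, with the median of all protein-coding genes in 5 level bands as black lines. The medians run from 0.070 under a level of 6 to -0.079 at 9 and above, and most CEP genes lie below the line of their band.

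Partners of the CEP proteins, listed by function, were also mostly lower with compound 1. Over all centrosome and cilium lists, 89 of 132 genes had a cluster; 65 were lower on the compound 1 array, 23 higher and 1 identical, with a median of -0.16. Of all protein-coding genes 54.3% were lower and 44.1% higher. After quantile normalization 61 of the 89 were lower and after cyclic loess 62, where 48.8% and 51.1% of all protein-coding genes were lower. Past 1.2-fold as deposited, 18 were lower and 2 higher, against 9.05% lower and 8.04% higher of all protein-coding genes. Whether the CEP genes differ from these partners was not tested.

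Among the partners, centriole duplication genes were lower in 10 of 13, with a median of -0.17. The mean log2 levels of this list had a median of 8.02, and 68.1% of all protein-coding genes between 8 and 9 were lower. POC1A, a centriole wall protein, was at 7.81 with compound 1 and 8.23 with the antagomir (-0.42), CPAP, which sets centriole length, at 7.42 with compound 1 and 7.75 with the antagomir (-0.33), and SASS6, which forms the cartwheel hub, at -0.26. PLK4, the kinase that CEP152 recruits, was at -0.17, and STIL at -0.13. WDR90, which tightens the centriole wall, was the highest, at 0.087. In the list for the pericentriolar material 9 of 21 genes were measured, and 8 of the 9 were lower, with a median of -0.20. Their mean log2 levels had a median of 8.28, in the same band. CDK5RAP2, which activates the gamma-tubulin ring, was at -0.34, and PLK1 and AURKA, the mitotic kinases bound by CEP192, were at -0.31 and -0.27. After quantile normalization PLK1 and AURKA lay inside 1.2-fold, at -0.25 and -0.19. PCNT, the pericentrin scaffold, was near equal at -0.014, and the highest was KIZ at 0.016. The lowest of the list, and 1 of its 4 genes past 1.2-fold lower as deposited, was CDK5RAP3 at -0.36, whose place in this material was not checked. None of the 8 HAUS genes of augmin was measured (0 of 8).

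Satellite genes were lower in 11 of 15, with a median of -0.17. PCM1, the satellite scaffold, was at -0.17, the lowest was CCDC18 at -0.72, and the highest C2CD3 at 0.31. The appendage list was lower in 11 of 14 genes (median -0.11). Its lowest and only gene past 1.2-fold was MCIDAS at -0.29, a regulator of multiciliated cells. The appendage protein gene ODF2 was at -0.26, and NINL was highest at 0.069. Of 4 linker genes 3 were lower, with NEK2, the kinase that dissolves the linker, lowest at -0.27 and CCDC102B highest at 0.13. LRRC45, at -0.013, stands in both the linker and the appendage list. The transition zone and ciliary transport list was lower in 23 of 35 (median -0.080), where 54.3% of all protein-coding genes were lower. In that list 7 passed 1.2-fold lower and 1 higher, against 9.05% and 8.04% of all protein-coding genes. The intraflagellar transport genes IFT81, IFT74, IFT88 and IFT52 were at -0.54, -0.46, -0.42 and -0.36, RPGRIP1L of the transition zone at -0.47, and B9D2 was highest at 0.52. The mean log2 levels of the satellite, appendage, linker and ciliary transport lists had medians of 7.19, 7.45, 7.40 and 7.24. Between levels of 7 and 8, 62.2% of all protein-coding genes were lower.

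The genes around CEP55 gave a list with 10 of 12 lower and a median of -0.13, where 54.3% of all protein-coding genes were lower. The median of the list's mean log2 levels was 8.87, and 68.1% of all protein-coding genes between 8 and 9 were lower. After quantile normalization 8 of the 12 were lower, and after cyclic loess also 8, where 48.8% and 51.1% of all protein-coding genes were lower. Of the ESCRT-III subunits that CEP55 leads to the midbody, CHMP4A was at -0.46, CHMP4B at -0.18 and CHMP4C at 0.30, the lowest and highest values of the list being those of CHMP4A and CHMP4C. TSG101, which CEP55 binds directly, was at -0.13. General mitosis markers were lower as well, in 20 of 20 measured of 25 listed, 10 of them past 1.2-fold (9.05% of all protein-coding genes), with a median of -0.26. The median of their mean log2 levels was 10.34, and of all protein-coding genes at a level of 9 or more 74.6% were lower. Their summed signal had a log2 value of 14.65 with compound 1 and 14.91 with the antagomir. TTK was lowest at -0.46, BIRC5 highest at -0.084, and MKI67, a marker of cycling cells, was at 11.00 with compound 1 and 11.28 with the antagomir. After quantile normalization and after cyclic loess all 20 markers stayed lower, but BUB1B, CCNB1, MKI67, ECT2 and PRC1 came to lie inside 1.2-fold. RACGAP1 (-0.39) and KIF23 (-0.25) stand in both the CEP55 list and the mitosis list, so these lists are not separate readings. RACGAP1 was under the median level of all clusters, at 5.10 with compound 1 and 5.49 with the antagomir. The part of cell cycle in the CEP differences was not tested.

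**Figure D4:**
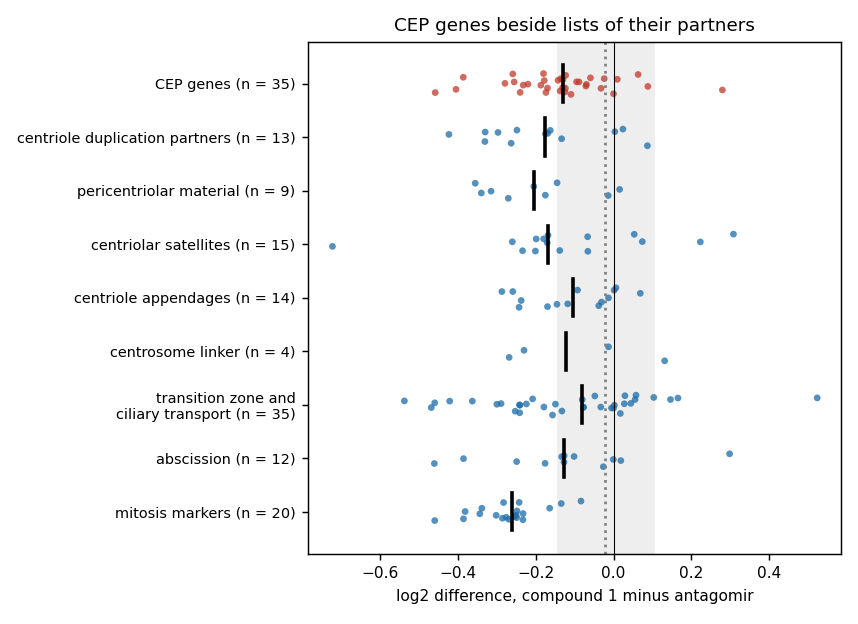
Log2 difference, compound 1 minus antagomir, of the CEP genes and of the measured members of 8 functional lists, 1 point per gene, with the median as a black bar; the grey band holds the middle 50% of all protein-coding genes and the dotted line their median. Medians run from -0.080 for ciliary transport to -0.26 for mitosis markers, with the CEP genes at -0.13.

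The CEP promoters were searched for short elements of cell cycle, ciliary and hypoxia promoters within the 250 bases before and 50 after the start and on either strand. The CHR element TTTGAA was present in 12 of 31 (38.7%) CEP promoters and 12.1% of 15843 promoters of protein-coding genes. The CCAAT box was present in 17 (54.8%) and 36.4%, and both together in 6 (19.4%) and 5.02%. These 6 were CEP295, CEP152, CEP192, CEP55, CEP57 and CEP89. The word GTTGCC, part of the site of RFX factors, which drive ciliary genes, was found in 9 (29.0%) and 12.6%. The E2F words TTTCCCGC, TTTGGCGC or TTTCGCGC were found in 4 (12.9%) and 3.77%. The core ACGTG of hypoxia response elements was in 8 (25.8%) and 23.7%. No searched word contains another, and a match is a description of letters, not of binding. The share was higher in CEP promoters for each element searched, by the least for ACGTG, and these shares were not tested.

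Differences were then set beside the elements, with no test. CEP genes with the CHR element had a median of -0.16 and those without it -0.12. For the CCAAT box the medians were -0.14 with it and -0.13 without, and for the E2F words -0.20 and -0.13. The order was the other way for the RFX word, at -0.12 with it and -0.14 without, and for ACGTG, at -0.13 with it and -0.14 without. With the CCAAT box and CHR together the medians were -0.23 for the 6 and -0.13 for the other CEP promoters. Over all protein-coding genes on the array they were -0.062 for 460 genes with both elements and -0.028 for those without. Each single element also went with the lower median there, including ACGTG (-0.052 and -0.021) and the RFX word (-0.035 and -0.028). With only the 200 bases before the start searched, the CEP medians were -0.1311 with the CCAAT box and -0.1355 without. For the E2F words, found in 3 CEP promoters, they were -0.14 and -0.13, and for CCAAT and CHR together -0.17 and -0.13.

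A divergent protein-coding neighbour whose start lies within 1000 bases on the opposite strand was found for 8 of 31 CEP genes (25.8%) and for 11.0% of 9707 protein-coding genes on the array. Of these neighbours 6 were measured, each opposite a CEP gene that was itself lower. Among the 6 neighbours 3 were lower, beside 54.3% of all protein-coding genes. FAAP24, opposite CEP89, was at 6.70 with compound 1 and 7.02 with the antagomir (-0.33), SDCCAG8, opposite CEP170, was at -0.18, and DDX5, opposite CEP95, was at -0.12. FBXO8, opposite CEP44, was identical at 8.31 on both arrays while CEP44 was at -0.40. TMTC3, opposite CEP290, was at 0.072 and SESN1, opposite CEP57L1, at 0.17. Among 365 such pairs on the array, both genes were lower in 47.1%, and their differences correlated with r = 0.170 across pairs. That share sets no condition on either gene, so it is not a like share for the 3 of 6.

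Marker genes of the labelled line and of other cell types were read as a check. The mesenchymal genes VIM, CD44, FN1, AXL and MSN had log2 levels of 9.04 to 12.77 with compound 1 and 9.08 to 12.78 with the antagomir. The luminal genes ESR1, PGR, FOXA1, ERBB3 and GATA3 had 4.77 to 7.44 with compound 1 and 4.77 to 7.27 with the antagomir, and the endothelial genes PECAM1, VWF and KDR had 5.57 to 7.03 with compound 1 and 5.32 to 6.92 with the antagomir. Of the leukocyte list only CD14 had a cluster, at 5.48 with compound 1 and 5.18 with the antagomir. The epithelial genes EPCAM, KRT8 and KRT18 were at 7.05, 7.81 and 11.18 with compound 1 and at 6.91, 7.80 and 11.28 with the antagomir. Their part in the CEP differences was not tested. The clusters of MIR544A and MIR544B, which read the microRNA precursors, lay below the 5.60 of the median cluster, at 4.83 and 3.60 with compound 1 and 4.78 and 3.52 with the antagomir. CDH1, CAV1 and most leukocyte markers had no named cluster.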

How the data were processed

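Per the labels, biotin-labelled cRNA from 5 µg of total RNA was hybridised to 1 array per treatment. The authors deposited 1 value per cluster and array on a scale whose range places it as log2 signal; background correction, normalization and log base were not given in the sources used here. Array medians were 5.62 (compound 1) and 5.59 (antagomir). Of 53617 clusters, 16098 had a gene symbol, all 16098 gene identifiers matched RefSeq GRCh38.p14 for names and gene types, and 0 symbols were updated. A gene was read by its cluster with the highest mean, and differences are compound 1 minus antagomir. A call is a difference past 1.2-fold. With 1 array per treatment no test was run. The series title names another array design than the probe table. The members and lists were chosen with earlier results of these data known. All CEP genes are named, with the lowest, the highest and up to 4 more genes of each list; all measured promoter neighbours are named too. The code that counts differences and takes medians was tested on simulated data with planted differences, which says nothing of the spread between arrays. In 1466 clusters the values of both arrays were the same. The array number limits the precision. Alternatives were centring, quantile normalization, cyclic loess, cluster choice, filters and thresholds. Python 3.11.15, numpy 2.4.6, pandas 2.3.3, matplotlib 3.10.9, R 4.3.3 and limma 3.58.1 were used.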

Additional observations from a re-analysis of the deposited data

How the results depend on the processing

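The lower direction of the CEP median and of every list median held under all alternatives run. The CEP share lower ranged from 82.9% after quantile normalization to 92.3% when entry began at the 75th percentile (24 of 26 genes), where 68.3% of all protein-coding genes were lower. The CEP median was -0.079 after quantile normalization and -0.092 after cyclic loess. Past 1.2-fold, centring gave 7 lower and 0 higher, and entry at the 75th percentile 3 lower and 0 higher. For these settings the share of all protein-coding genes past 1.2-fold was not counted. A threshold of 1.1-fold gave 15 lower (25.8% of all protein-coding genes). At 1.5-fold there were 0 lower and 0 higher (0.478% and 0.655% of all protein-coding genes). The medians after quantile normalization were -0.052 for abscission, -0.095 for satellites, -0.11 for centriole duplication, -0.055 for appendages (8 of 14 lower), -0.073 for the linker (2 of 4 lower), -0.19 for mitosis, -0.028 for ciliary transport and -0.095 for all centrosome and cilium lists. After cyclic loess they were -0.058 for abscission, -0.062 for appendages (8 of 14 lower), -0.052 for ciliary transport, -0.19 for mitosis and -0.10 for all centrosome and cilium lists, which was at -0.19 after centring. Quantile normalization left 48.8% of all protein-coding genes lower, and cyclic loess 51.1%. With entry at the 75th percentile, ciliary transport was at -0.13 and the linker at -0.23 (3 of 3 lower). The cause of these moves was not tested. In the 200 bases before the start, 7 CEP promoters held the CHR element (22.6%, and 8.09% of all promoters) and 5 the RFX word (16.1%, and 8.65% of all promoters). Of single CEP genes, signs turned for 4 after quantile normalization (CEP41, CEP68, CEP78 and CEP162), for 2 after cyclic loess and for 1 after centring; cluster choice could change none, since each has 1 cluster. Depth has no counterpart here, and the spread between clusters of a gene, 0.17, limits single values. No paired analysis was possible because there was a single array for either treatment.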
